A study of Mus musculus with 6 samples.

Results

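Transcript levels of 10 genes, the Gadd45 family (Gadd45a, Gadd45b, Gadd45g), Trp53, which encodes the transcription factor p53, Mdm2, and the p53 target genes Cdkn1a, Btg2, Ccng1, Phlda3 and Trp53inp1, were examined in mouse bone-marrow-derived macrophages (BMDMs) exposed to lipopolysaccharide (LPS) with or without metformin. The genes were chosen by symbol and are 10 of the 54532 genes listed. BMDMs are macrophages grown from bone marrow, here from wildtype C57BL/6 mice, over 6 days with medium conditioned by L929 cells, and reseeded before treatment. LPS is a cell-wall component of Gram-negative bacteria sensed through TLR4, and metformin is a diabetes drug that inhibits mitochondrial complex I and activates the kinase AMPK. The 6 RNA-seq libraries formed 3 groups of 2, namely untreated BMDMs, BMDMs given 100 ng/ml LPS for 2 h (LPS), and BMDMs given 5 mM metformin for 6 h before the same LPS stimulation (Met + LPS). The 6 libraries include no group with metformin alone, so that a change between Met + LPS and LPS is a change in LPS-stimulated cells. An effect of metformin without LPS cannot be assessed from them. The age and number of the mice are not given in the sources used here, and p-values measure the spread between these libraries, which may be technical.

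p53 is a transcription factor that is held at a low level by the ubiquitin ligase Mdm2, itself a p53 target, and that accumulates after DNA damage and other stresses. Its target genes include brakes on the cell cycle, regulators of apoptosis and autophagy, and genes of the DNA damage response. The Gadd45 proteins are small, closely related stress proteins that bind the kinase Map3k4, Cdk1 and Pcna. Gadd45a is a known p53 target and is also induced by nutrient and endoplasmic reticulum stress, whereas Gadd45b is known as a target of NF-κB, the transcription factor activated by LPS. Several of these genes thus answer to more than 1 pathway, and their transcript levels are no measure of p53 activity.

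Levels are given as TPM, read counts corrected for gene length that add up to the same sum in each library. Reads assigned to genes, recovered from the TPM values, numbered between 25448768 and 30757674 per library. Differences were tested with limma on log2(TPM + 1) over 12755 genes, and a gene was called changed at a Benjamini-Hochberg adjusted p-value under 0.01. Over all tested genes the median log2 fold change was -0.48 for LPS vs. untreated, -0.03 for Met + LPS vs. LPS and -0.48 for Met + LPS vs. untreated, and after median-ratio scaling it was -0.01, -0.02 and 0.00. The summed level of 8 macrophage markers was 44621 to 46599 TPM in untreated, 37412 to 37903 TPM in LPS and 30877 to 30948 TPM in Met + LPS libraries. Lyz2 made up most of this sum, averaging 34912, 26835 and 21292 TPM in the same order. With LPS 2 of the 8, Cd14 and Adgre1, were called higher and 5 lower (25% and 62.5%, against 16.2% and 60.1% of all genes). After median-ratio scaling 5 were higher and 1 lower (62.5% and 12.5%, against 30.6% and 27.6%). In Met + LPS vs. LPS, 6 of the 8 were called lower (75%, against 18.0% of all genes). The sum of 7 neutrophil and granulocyte precursor markers was 27.8 to 31.1 TPM in untreated, 24.8 to 26.4 TPM in LPS and 41.1 to 42.7 TPM in Met + LPS libraries. Elane, S100a9, S100a8 and Mpo averaged 15.6, 14.3, 8.53 and 2.56 TPM in Met + LPS. In LPS they averaged 8.64, 9.08, 5.90 and 1.48 TPM, and none of these differences passed the threshold. Ly6g was at 0 in 5 of 6 libraries. The part of these differences in the results was not tested. Lymphocyte markers summed to at most 0.793 TPM, fibroblast markers to at most 0.846 TPM, erythroid markers to at most 0.365 TPM and dendritic cell markers to at most 6.08 TPM. In such bulk samples, fewer cells expressing a gene and less RNA per cell cannot be told apart.

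The sequences just upstream of 3 members are shown because these genes had the largest responses among the 9 members with a promoter entry. They are RefSeq promoter sequences (GRCm38.p6), read 5′ to 3′ on the strand of the gene and ending at the last base before the annotated gene. Capitals mark matches on either strand to the octamer ATTTGCAT, the CCAAT box (CCAAT), the TATA box (TATAAA) and the p53 half-site, which is searched by its consensus.
Gadd45a, chr6:67037458-67037657, minus strand: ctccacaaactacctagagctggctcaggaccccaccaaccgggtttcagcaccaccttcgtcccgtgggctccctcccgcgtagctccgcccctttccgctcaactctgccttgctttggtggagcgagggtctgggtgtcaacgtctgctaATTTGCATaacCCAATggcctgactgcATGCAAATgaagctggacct
Gadd45b, chr10:80929841-80930072, plus strand: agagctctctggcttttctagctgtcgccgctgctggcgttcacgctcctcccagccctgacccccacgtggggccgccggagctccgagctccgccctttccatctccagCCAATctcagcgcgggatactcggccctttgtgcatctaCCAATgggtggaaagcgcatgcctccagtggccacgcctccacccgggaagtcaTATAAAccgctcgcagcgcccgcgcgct
Cdkn1a, chr17:29090729-29090975, plus strand: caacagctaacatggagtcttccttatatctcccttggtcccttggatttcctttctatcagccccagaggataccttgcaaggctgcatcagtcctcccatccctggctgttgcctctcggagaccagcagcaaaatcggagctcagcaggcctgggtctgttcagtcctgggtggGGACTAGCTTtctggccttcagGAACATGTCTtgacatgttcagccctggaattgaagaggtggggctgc
In the 250 bases before the RefSeq start, Gadd45a held an octamer in each orientation and 1 CCAAT box between them. The octamer was present in 526 of the 32851 mouse promoters of the same length, and the CCAAT box in 33.9%. Gadd45b held 2 CCAAT boxes and a TATA box, which 12.4% of promoters held. Cdkn1a held p53 half-site matches at -73 and -51 bases from the start, and 7.13% of promoters held at least 1. A further RefSeq promoter of Cdkn1a, at chr17:29093519-29093768 within the annotated gene, held no match. The NF-κB consensus was also searched in these 250 bases and had no match in the 9 members with a promoter entry, Gadd45b included, where 7.25% of promoters held it. Sites further upstream or with other letters were outside this search, so it cannot tell whether a gene has such a site. Gadd45a, Trp53, Mdm2 and Ccng1 each had a p53 half-site match as well, that of Gadd45a at -40, inside the annotated first exon and outside the printed stretch. Also searched were motifs, or short base patterns, for C/EBP-ATF, AP-1, CRE and FOXO, with no match in the 3 promoters shown. Gadd45g held that for C/EBP-ATF, Btg2 that for CRE and Mdm2 that for FOXO (3.45%, 1.55% and 3.17% of promoters). AP-1 (6.75% of promoters) had no match in any member searched. These matches are descriptions of letters and were not tested for binding.

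The 3 Gadd45 genes had 3 different patterns, and Gadd45a moved most between Met + LPS and LPS. Gadd45a (ENSMUSG00000036390, chr6:67035096-67037457, minus strand) was at 55.0 and 51.4 TPM in the untreated libraries, 4.24 and 4.66 TPM in the LPS libraries, and 74.8 and 77.6 TPM in the Met + LPS libraries. The groups did not overlap, with both LPS libraries far below the rest and both Met + LPS libraries above the untreated ones. The mean was thus 11.9-fold lower in LPS than in untreated BMDMs (4.45 ± 0.294 vs. 53.2 ± 2.59 TPM, SD, n = 2), and 17.1-fold higher in Met + LPS (76.2 ± 1.98 TPM) than in LPS. On the log2 scale the change was -3.31 (SE 0.06, limma adjusted p = 4.0e-08, or -2.82 after median-ratio scaling) for LPS vs. untreated and 3.82 (SE 0.06, limma adjusted p = 3.3e-06) for Met + LPS vs. LPS. The latter was the second highest log2 fold change among the 12755 genes tested. Gadd45a in Met + LPS was also 1.43-fold above untreated BMDMs (log2 fold change 0.51, SE 0.06, limma adjusted p = 1.9e-04, or 1.04 after median-ratio scaling). Only 57 and 60 reads underlay the LPS values of Gadd45a, against 649 to 1211 in the other libraries. An antisense gene, E230016M11Rik, overlaps 19.1% of the exon length of Gadd45a and was at 0.207 to 1.27 TPM, and whether the counting used strand is not given in the sources used here.

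Gadd45b (ENSMUSG00000015312, chr10:80930073-80932204, plus strand) was at 57.0 and 55.9 TPM without treatment, 721 and 758 TPM after LPS, and 671 and 676 TPM in Met + LPS. Both LPS-treated groups stood well above the untreated libraries, and the Met + LPS libraries lay just below the LPS libraries. The rise with LPS was 13.1-fold (log2 fold change 3.69, SE 0.04, limma adjusted p = 3.2e-09, or 4.21 after median-ratio scaling), and Met + LPS stood 11.9-fold above untreated (log2 fold change 3.55, limma adjusted p = 3.9e-09). Between Met + LPS and LPS the log2 difference of Gadd45b was -0.13 (95% interval -0.22 to -0.05) and did not pass the threshold (limma adjusted p = 0.020), whereas it passed with voom on recovered reads (-0.14, adjusted p = 0.0052). The interval left room only for a decrease much smaller than the increase seen for Gadd45a in the same libraries.

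Gadd45g (ENSMUSG00000021453, chr13:51846678-51848468, plus strand), the member of the family with the fewest reads in untreated cells, was at 19.2 and 17.7 TPM untreated, 9.97 and 14.7 TPM after LPS, and 10.0 and 13.5 TPM in Met + LPS. Both untreated libraries were above the other 4, and the LPS and Met + LPS libraries overlapped. Its 3 differences did not pass the threshold in limma, with log2 values of -0.57 (SE 0.19, adjusted p = 0.028) for LPS vs. untreated and -0.62 (adjusted p = 0.020) for Met + LPS vs. untreated. For Met + LPS vs. LPS the log2 difference was -0.05 with a 95% interval of -0.51 to 0.40 (limma adjusted p = 0.84), a range that leaves out neither a moderate rise nor a moderate fall. Without LPS replicate 2, the Gadd45g difference for LPS vs. untreated was -0.83 and passed (limma adjusted p = 0.0062), as did -0.59 with voom on recovered reads (adjusted p = 0.0033), but it was -0.31 without LPS replicate 1 (limma adjusted p = 0.14) and -0.07 after median-ratio scaling (limma adjusted p = 0.76). For Met + LPS vs. untreated, the Gadd45g difference passed under 7 of 17 alternatives and ranged from -0.82 to -0.11.

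The makeup of the Gadd45 transcripts therefore differed between the groups. Gadd45a made up 41.5% ± 0.588 (SD, n = 2) of the summed Gadd45 TPM in untreated BMDMs, 0.589% ± 0.0159 in LPS and 10.0% ± 0.158 in Met + LPS. Gadd45b made up 44.1% ± 0.886, 97.8% ± 0.397 and 88.5% ± 0.463 in the same order. Gadd45g took 14.4% ± 0.298 of the sum in untreated cells and 1.62% ± 0.381 and 1.54% ± 0.305 in LPS and Met + LPS. The sum of the 3 genes averaged 128 ± 4.43 TPM without treatment, 756 ± 29.6 TPM with LPS and 761 ± 7.76 TPM in Met + LPS, the latter groups differing by less than the spread of the LPS libraries.

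**Figure D1:**
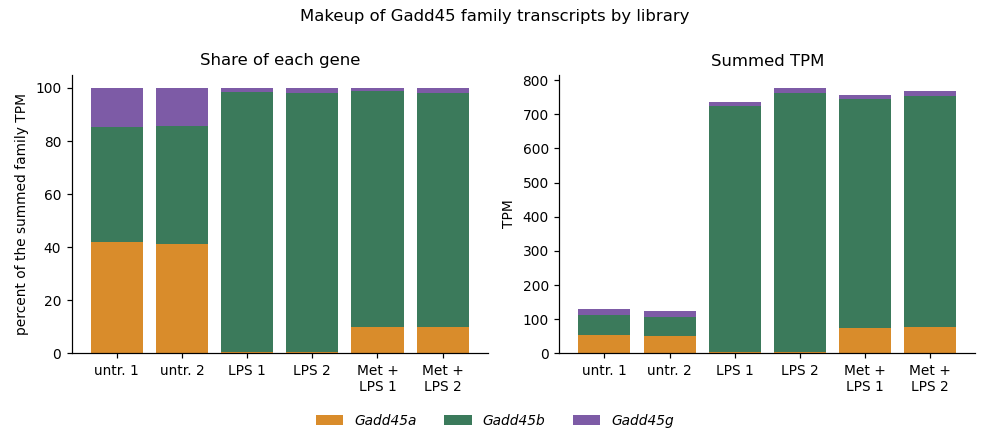
Stacked bars, 1 per library, of each Gadd45 gene as a percent of the summed Gadd45 TPM (left) and in TPM (right). Gadd45a and Gadd45b were near parity in untreated BMDMs, Gadd45b averaged 97.8% in LPS, and Gadd45a averaged 10.0% in Met + LPS at a similar sum.

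Trp53 and Mdm2 changed by less than 2-fold in mean TPM in each comparison. Trp53 (ENSMUSG00000059552, chr11:69580359-69591873, plus strand) was at 51.3 and 53.1 TPM untreated, 79.1 and 80.0 TPM after LPS, and 60.6 and 64.3 TPM in Met + LPS. The groups did not overlap and Met + LPS was intermediate. Trp53 rose 1.52-fold with LPS (log2 fold change 0.60, SE 0.04, limma adjusted p = 2.0e-05) and was 1.27-fold lower in Met + LPS than in LPS (log2 fold change -0.35, SE 0.04, limma adjusted p = 9.8e-04). Met + LPS remained above untreated (log2 fold change 0.25, limma adjusted p = 0.0014), a call lost without untreated replicate 1 (0.23, limma adjusted p = 0.015). After median-ratio scaling the log2 fold change of Trp53 over untreated was 1.12 with LPS and 0.78 in Met + LPS. Of the 31-base stretches in Trp53 transcripts, 89.8% occur in no other gene, and its pseudogene Trp53-ps is among the genes that share the rest.

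Mdm2 (ENSMUSG00000020184, chr10:117688875-117710758, minus strand) was at 112 and 117 TPM untreated, 141 and 138 TPM after LPS, and 152 and 146 TPM in Met + LPS. The untreated libraries were lowest and the Met + LPS libraries highest, without overlap. Mdm2 rose 1.22-fold with LPS (log2 fold change 0.29, SE 0.04, limma adjusted p = 4.2e-04). The further difference in Met + LPS, 0.10 on the log2 scale with a 95% interval from 0.00 to 0.19, did not pass the threshold (limma adjusted p = 0.084). Against untreated BMDMs the log2 fold change of Mdm2 in Met + LPS was 0.38 (limma adjusted p = 9.9e-05). After median-ratio scaling these rises of Mdm2 over untreated were 0.81 with LPS and 0.92 in Met + LPS.

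Cdkn1a (ENSMUSG00000023067, chr17:29090976-29100727, plus strand), which encodes the cyclin-dependent kinase inhibitor p21, was the most abundant member after LPS. It was at 102 and 98.3 TPM in untreated libraries, 1813 and 1757 TPM in LPS libraries, and 1206 and 1214 TPM in Met + LPS libraries. The groups did not overlap, and Met + LPS lay between the others. Cdkn1a rose 17.9-fold with LPS (log2 fold change 4.14, SE 0.03, limma adjusted p = 1.8e-09, or 4.67 after median-ratio scaling), to rank 70 of all genes by level. It was 1.48-fold lower in Met + LPS than in LPS (log2 fold change -0.56, SE 0.03, limma adjusted p = 5.0e-05). It remained 12.1-fold above untreated in Met + LPS (log2 fold change 3.58, limma adjusted p = 3.0e-09). An antisense gene, AC167363.2, overlaps 7.68% of the Cdkn1a exon length. It was at 0.629 and 0.801 TPM untreated, 14.7 and 16.5 TPM in LPS, and 12.9 and 11.7 TPM in Met + LPS. It thus differed between the groups in the same direction as Cdkn1a, and its part in the Cdkn1a values was not tested.

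**Figure D2:**
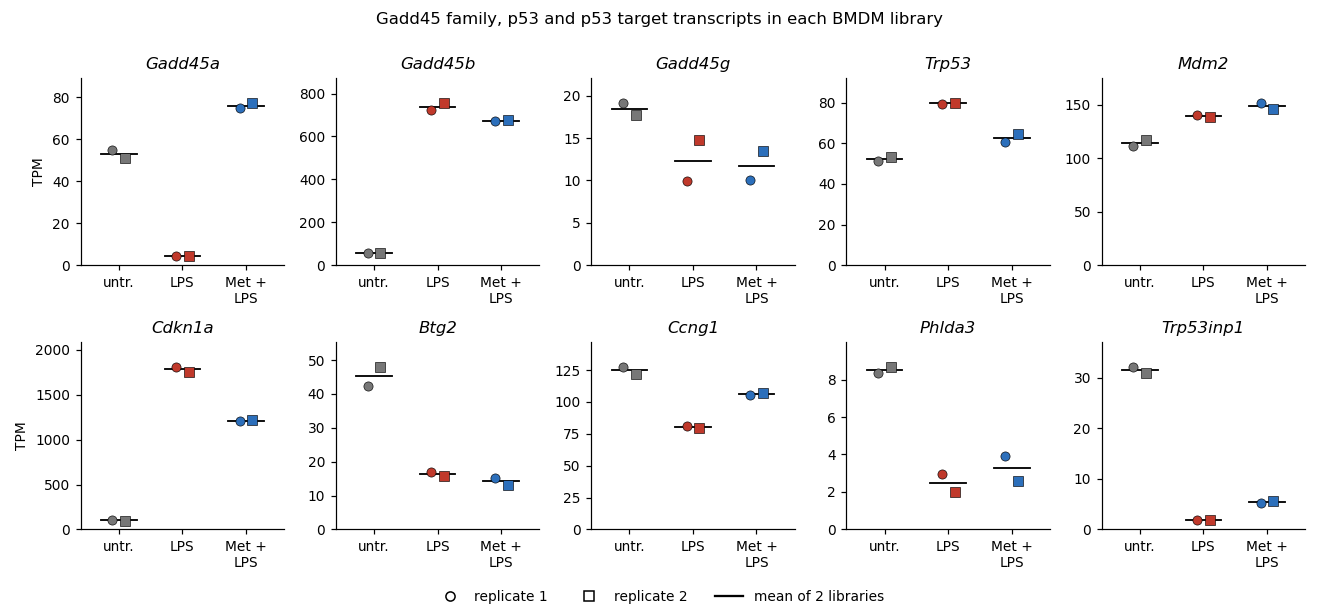
TPM of the 10 genes, each on a linear axis from 0, in the 2 untreated (grey), 2 LPS (red) and 2 Met + LPS (blue) libraries, with circles for replicate 1, squares for replicate 2 and a line at the mean. Gadd45a and Trp53inp1 were low after LPS, Cdkn1a and Gadd45b were high, and the points of Gadd45g and Phlda3 overlapped between LPS and Met + LPS.

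Trp53inp1 (ENSMUSG00000028211, chr4:11156431-11174379, plus strand), whose product promotes autophagy and p53 activity, fell most with LPS among the members. It was at 32.2 and 30.9 TPM untreated, 1.81 and 1.82 TPM after LPS, and 5.21 and 5.57 TPM in Met + LPS. The 3 groups did not overlap. The fall was 17.4-fold with LPS (log2 fold change -3.53, SE 0.07, limma adjusted p = 5.4e-08, or -3.08 after median-ratio scaling). Met + LPS was 2.97-fold above LPS (log2 fold change 1.18, SE 0.07, limma adjusted p = 4.4e-05) yet 5.86-fold below untreated (log2 fold change -2.35, limma adjusted p = 3.9e-07). The LPS values rest on 86 and 89 reads.

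Btg2 (ENSMUSG00000020423, chr1:134075170-134079120, minus strand), an antiproliferative gene that recruits the mRNA deadenylation machinery, was at 42.5 and 48.0 TPM untreated, 17.0 and 15.9 TPM after LPS, and 15.2 and 13.2 TPM in Met + LPS. It fell 2.75-fold with LPS (log2 fold change -1.40, SE 0.09, limma adjusted p = 1.0e-05, or -0.89 after median-ratio scaling). The Met + LPS libraries were the lowest, but the difference from LPS did not pass (log2 difference -0.20, 95% interval -0.41 to 0.01, limma adjusted p = 0.10). Both LPS-treated groups lay below the untreated libraries, Met + LPS 3.19-fold (log2 fold change -1.61, limma adjusted p = 5.5e-06).

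Ccng1 (ENSMUSG00000020326, chr11:40748552-40755311, minus strand), a cyclin G that acts with Mdm2 in p53 feedback, was at 128 and 122 TPM untreated, 81.2 and 79.5 TPM after LPS, and 106 and 107 TPM in Met + LPS. It fell 1.55-fold with LPS (log2 fold change -0.63, SE 0.04, limma adjusted p = 8.0e-06), which is close to the median of all genes and did not pass after median-ratio scaling (-0.11, limma adjusted p = 0.037). It was 1.32-fold higher in Met + LPS than in LPS (log2 fold change 0.40, SE 0.04, limma adjusted p = 2.8e-04). Against untreated, Met + LPS was lower by -0.23 on the log2 scale (limma adjusted p = 9.8e-04), but after median-ratio scaling the difference was 0.30, higher rather than lower.

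Phlda3 (ENSMUSG00000041801, chr1:135766119-135769136, plus strand), an inhibitor of Akt signalling, was at 8.35 and 8.69 TPM untreated, 2.95 and 2.02 TPM after LPS, and 3.90 and 2.61 TPM in Met + LPS. Both untreated libraries were highest, and the LPS and Met + LPS libraries overlapped. It fell 3.43-fold with LPS (log2 fold change -1.46, SE 0.18, limma adjusted p = 2.7e-04, or -1.03 after median-ratio scaling). Met + LPS vs. LPS did not pass (log2 difference 0.28, 95% interval -0.15 to 0.72, limma adjusted p = 0.24). Phlda3 in Met + LPS was 2.62-fold below untreated (log2 fold change -1.18, limma adjusted p = 8.1e-04), a call lost without untreated replicate 1 (-1.20, adjusted p = 0.011), without untreated replicate 2 (-1.15, adjusted p = 0.013) or after median-ratio scaling (-0.72, adjusted p = 0.011). At 23 to 99 reads, Phlda3 was the least deeply covered member.

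Of the 10 genes, 9 changed with LPS, 4 higher and 5 lower, where 76.3% of all tested genes changed (16.2% higher, 60.1% lower). After median-ratio scaling 8 changed, 4 higher and 4 lower, where 30.6% of all genes were higher and 27.6% lower. The higher ones were Gadd45b, Cdkn1a, Trp53 and Mdm2, and the lower ones Gadd45a, Btg2, Ccng1, Phlda3 and Trp53inp1. Past the study's cut-off of 2 on the absolute log2 scale were 4, Gadd45b, Cdkn1a, Gadd45a and Trp53inp1, against 6.08% of all genes (3.72% higher, 2.37% lower). The libraries of LPS and untreated were apart for all 10 genes, which held for 91.6% of all genes (20.1% higher, 71.5% lower). The median log2 fold change over the 10 genes was -0.60, against -0.48 over all genes. Between Met + LPS and LPS, 5 changed, against 32.6% of all tested genes, with Gadd45a, Ccng1 and Trp53inp1 higher (14.5% of all genes were) and Trp53 and Cdkn1a lower (18.0% of all genes were). Past the cut-off of 0.7 were 2, Gadd45a and Trp53inp1, both higher, against 8.28% of all genes (4.19% higher, 4.09% lower). The libraries of Met + LPS and LPS did not overlap for 8 of the 10 genes, 4 higher and 4 lower, against 73.8% of all genes (33.8% higher, 40.0% lower). The median over the 10 genes was 0.02. Between Met + LPS and untreated, 9 changed, 5 higher and 4 lower, against 75.1% of all genes (16.3% higher, 58.8% lower), and after median-ratio scaling 6 were higher and 2 lower, where 33.4% and 29.7% of all genes were. Gadd45b, Cdkn1a and Trp53inp1 were past a cut-off of 2 (Trp53inp1 at -1.85 not, after that scaling), against 5.35% of all genes (3.18% higher, 2.16% lower), and the libraries were apart for all 10, against 90.7% of all genes (21.7% higher, 69.1% lower). The comparisons share libraries and are not independent of each other.

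**Figure D3:**
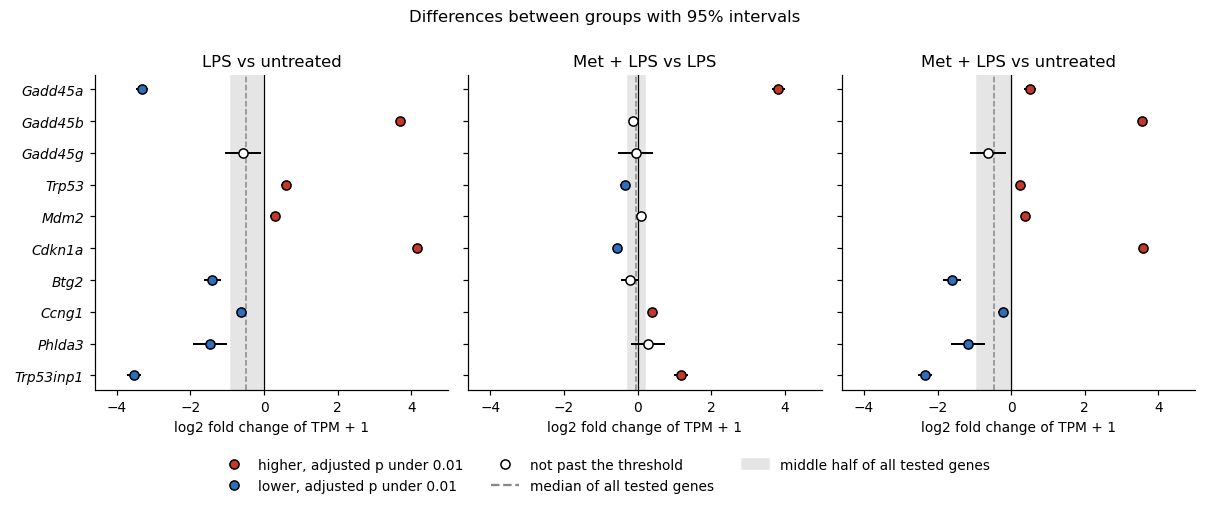
Log2 fold change on log2(TPM + 1) with its 95% interval from limma for the 10 genes in the 3 comparisons, filled red (higher) or blue (lower) where the adjusted p-value was under 0.01 and open where not, with the median (dashed) and the interquartile range (grey) of all tested genes. Cdkn1a (4.14) and Gadd45b (3.69) were highest and Trp53inp1 (-3.53) lowest in LPS vs. untreated, and Gadd45a (3.82) was highest in Met + LPS vs. LPS.

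Other p53 target genes moved in both directions. Of 40 listed, 35 were tested, and with LPS 8 rose, 22 fell and 5 did not pass. Their median was -0.80, against -0.48 for all genes. Thus 22.9% were higher and 62.9% lower, against 16.2% and 60.1% of all genes. After median-ratio scaling, 10 were higher and 17 lower (28.6% and 48.6%, against 30.6% and 27.6% of all genes). Fas, a death receptor, rose from 4.89 to 54.6 TPM (log2 fold change 3.24, limma adjusted p = 8.2e-08). Sesn1, a stress-inducible inhibitor of mTORC1, fell from 186 to 7.38 TPM (log2 fold change -4.48, limma adjusted p = 3.5e-08). In Met + LPS vs. LPS, 12 of the 35 were higher (34.3%, against 14.5% of all genes), 7 lower (20.0%, against 18.0%) and 16 did not pass, with a median of 0.01. Gdf15, a stress-induced cytokine, was at 811 TPM in Met + LPS against 34.7 TPM in LPS (log2 fold change 4.51, limma adjusted p = 3.3e-06). Sesn2, a relative of Sesn1, was at 23.3 against 4.42 TPM (log2 fold change 2.16, limma adjusted p = 2.4e-05), and Plk2, a polo-like kinase, at 399 against 111 TPM (log2 fold change 1.83, limma adjusted p = 7.3e-06). Against untreated cells, Met + LPS showed 8 higher and 20 lower targets (22.9% and 57.1%, against 16.3% and 58.8% of all genes), or 13 and 14 after median-ratio scaling (37.1% and 40%, against 33.4% and 29.7%).

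**Figure D4:**
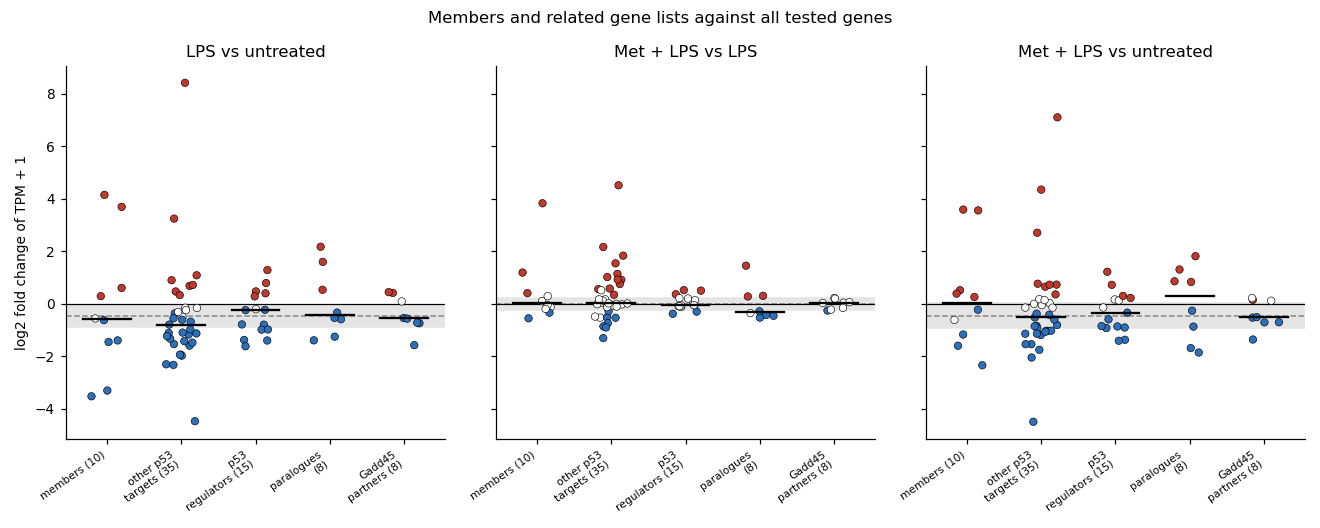
Log2 fold change on log2(TPM + 1) of the members and of 4 related lists in the 3 comparisons, 1 point per tested gene (red higher, blue lower, open not past the threshold), with a bar at the median of each list and the median (dashed) and interquartile range (grey) of all tested genes. Sesn1 (-4.48) was the lowest of the other p53 targets in LPS vs. untreated, and Gdf15 (4.51) was highest in Met + LPS vs. LPS.

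Of 16 listed p53 regulators, 15 were tested. With LPS 5 rose and 9 fell (33.3% and 60%, against 16.2% and 60.1% of all genes), with a median of -0.25. After median-ratio scaling 7 rose and 5 fell (46.7% and 33.3%, against 30.6% and 27.6%). Ppm1d, the phosphatase that switches off p53 signalling, fell from 19.4 to 5.63 TPM (log2 fold change -1.63, limma adjusted p = 6.6e-06), and the checkpoint kinase Chek2 from 26.2 to 9.45 TPM (log2 fold change -1.39, limma adjusted p = 5.3e-06). In Met + LPS vs. LPS, 3 were higher and 2 lower (20% and 13.3%, against 14.5% and 18.0% of all genes), Chek2 by 0.51 (limma adjusted p = 0.0018) and Rchy1, a ubiquitin ligase of p53, by 0.49 (limma adjusted p = 0.000998) on the log2 scale, and the acetyltransferase Ep300 by -0.39 (limma adjusted p = 9.0e-04). The p53 relatives Trp63 and Trp73 did not pass the filter, with a summed level of at most 0.0204 TPM.

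Of 8 tested paralogues of the members, 3 rose and 5 fell with LPS (37.5% and 62.5%, against 16.2% and 60.1% of all genes). After median-ratio scaling 3 rose and 2 fell (37.5% and 25%, against 30.6% and 27.6%). In Met + LPS vs. LPS, 3 paralogues were higher and 4 lower (37.5% and 50%, against 14.5% and 18.0% of all genes). Cdkn1c, a relative of Cdkn1a that encodes p57, was at 126 TPM in Met + LPS against 45.5 TPM in LPS (log2 fold change 1.45, limma adjusted p = 7.3e-06), whereas Cdkn1a was lower. Cdkn1b, encoding p27, was lower by -0.53 on the log2 scale (limma adjusted p = 4.2e-04). Ccng2, a relative of Ccng1, rose with LPS from 30.2 to 93.1 TPM (log2 fold change 1.59, limma adjusted p = 6.0e-07), where Ccng1 fell.

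Among 8 binding partners of the Gadd45 proteins, 2 rose and 5 fell with LPS (25% and 62.5%, against 16.2% and 60.1% of all genes), or 3 and 2 after median-ratio scaling (37.5% and 25%, against 30.6% and 27.6%). Map3k4, the kinase activated by Gadd45 proteins, went from 11.2 to 3.07 TPM (log2 fold change -1.58, limma adjusted p = 4.0e-06). In Met + LPS vs. LPS, Mapk14, encoding p38α, was the single partner that changed, 12.5% of the 8 against 32.6% of all genes (log2 fold change -0.26, limma adjusted p = 6.8e-04). The list of other genes named for growth arrest and DNA damage held 3. With LPS 2 rose and 1 fell (66.7% and 33.3%, against 16.2% and 60.1% of all genes). In Met + LPS vs. LPS, 2 were higher and 1 lower (66.7% and 33.3%, against 14.5% and 18.0%). The lower one was Ddit4, at 1.67, 3.95 and 1.70 TPM in untreated, LPS and Met + LPS (log2 fold change -0.87 for Met + LPS vs. LPS, limma adjusted p = 0.0028). Ddit3, which encodes the stress transcription factor CHOP, fell from 45.9 to 13.3 TPM with LPS and was at 50.9 TPM in Met + LPS (log2 fold changes -1.71 and 1.86, limma adjusted p = 2.3e-07 and 4.4e-06). Ppp1r15a, also called GADD34, which directs dephosphorylation of the translation factor eIF2α, was at 33.9, 193 and 347 TPM in untreated, LPS and Met + LPS (log2 fold change 0.84 for Met + LPS vs. LPS, limma adjusted p = 2.9e-05). Of 12 proliferation genes, 1 rose and 10 fell with LPS (8.33% and 83.3%, against 16.2% and 60.1% of all genes), or 2 and 2 after median-ratio scaling (16.7% each, against 30.6% and 27.6%). Without that scaling the gene that rose was Mki67, at 60.4, 208 and 138 TPM in untreated, LPS and Met + LPS. Its log2 fold change with LPS was 1.77 (limma adjusted p = 3.4e-06). In Met + LPS 3 of the 12, Mki67 among them, were lower than in LPS (25%, against 18.0% of all genes). Some lists share genes, so their counts are not separate observations. Cdk1, Ccnb1 and Pcna are both Gadd45 partners and proliferation genes. Ddit4 is in both the growth arrest list and that of other p53 targets.

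The genes with the pattern most like Gadd45a, Gadd45b, Cdkn1a, Btg2, Mdm2 and Trp53 were found by the Euclidean distance between log2(TPM + 1) values centred on each gene, over the 6 libraries. For Gadd45a they were Samd8 (distance 1.31), Trib3 (1.64) and Nckap5l (1.67). The distance grows with the size of the changes, so these values do not show that the direction of change was particular to Gadd45a. Samd8 also fell with LPS and was high in Met + LPS, at 48.9, 9.04 and 60.4 TPM in untreated, LPS and Met + LPS. Trib3, a pseudokinase induced by nutrient and endoplasmic reticulum stress, was at 17.8, 4.57 and 60.5 TPM in untreated, LPS and Met + LPS. For Gadd45b they were Helz2 (0.16), Tfec (0.19) and Nlrp3 (0.22), and for Cdkn1a Plat (0.10), Mycl (0.15) and Ehd1 (0.19). Plat and Mycl averaged only 0.054 and 0.117 TPM untreated, against 18.4 and 18.2 TPM in LPS. At such levels the added 1 TPM shapes the distance, and their TPM ratios were larger than that of Cdkn1a. For Btg2 they were Per3 (0.08), Pdpr (0.11) and Madd (0.12), of which Per3 was also low, at 3.92 TPM untreated and 0.893 TPM in LPS. For Mdm2 they were Sestd1 (0.04), Nup153 (0.05) and Wac (0.05), and for Trp53 Ms4a6d (0.05), Atp2c1 (0.09) and Coro2a (0.09). The distances are descriptions over 6 libraries, which share their treatments.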

How the data were processed

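Poly-A RNA of 6 BMDM libraries was sequenced by the authors, and the values they deposited are TPM per gene. Per the submitters' processing notes, STAR 2.6.1d, SAMtools 1.9 and featureCounts from Subread 1.6.3 were used with GRCm38, and the authors tested counts with DESeq2. How counts became TPM and whether strand was used are not given in the sources used here. Groups came from the sample descriptions. The 12755 genes that reached 1 TPM in 2 or more libraries entered limma 3.58.1 (R 4.3.3), fitted to log2(TPM + 1) with a trended eBayes, all 3 groups in a common fit (3 residual degrees of freedom) and Benjamini-Hochberg adjustment. A fold change on this scale understates that of low genes, and fold values in the text are ratios of mean TPM. Reads were recovered by multiplying TPM by GENCODE exon length, which gave whole multiples of a step for 96.1% to 96.3% of values above 0. They cover counting error only. Gene positions are those of the deposited table. The members, lists and motifs were chosen with earlier results of these data known. Named genes are the members, the 3 largest changes per list and comparison, of which some are given and 1 is not reported here, and the 3 most similar genes. Alternatives were another pseudocount, filter, scaling, set of libraries, replicate block and voom on recovered reads, the last chosen after seeing the data.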

Additional observations from a re-analysis of the deposited data

How the results depend on the processing

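Of 510 alternative values (30 fold changes of the 10 genes under 17 alternatives), 484 kept their direction and their side of the threshold. Another 6 lost the call, 16 gained it and 4 changed sign. Direction could change only with another pseudocount, scaling or voom, or without a library of a compared group. The other alternatives keep the fold change itself, and an adjusted p-value under 0.05 can only add calls. The 484 are thus in part fixed in advance. Gadd45g in Met + LPS vs. LPS, never past the threshold, ran from -0.31 to 0.21 when 1 library was left out, with 0.21 without LPS replicate 2 and 0.14 without Met + LPS replicate 1. Ccng1 in Met + LPS vs. untreated went to 0.30 with median-ratio scaling and 0.31 with voom after that scaling. With the same scaling the Ccng1 fall with LPS was -0.11 (limma adjusted p = 0.037), and Phlda3 in Met + LPS vs. untreated was -0.72 (adjusted p = 0.011). With non-overlapping libraries as the criterion, 8 members rather than 5, 12 p53 regulators rather than 5 and 5 Gadd45 partners rather than 1 differed between Met + LPS and LPS, where 73.8% of all genes did. Gadd45 partners numbered 2 with voom on recovered reads and 2 at an adjusted p-value under 0.05. For p53 regulators, a fit of the compared groups only gave 3, and leaving out 1 library 3 to 4. For paralogues, 7 changed between Met + LPS and LPS, but 4 without a filter, 3 with the compared groups only, 3 without a trend and 3 to 5 when 1 library was left out (5 without Met + LPS replicate 2, 3 or 4 without any other), and with LPS 5 rather than 8 after median-ratio scaling. The causes were not tested. Same-numbered libraries did not deviate together (correlations -0.00, 0.03 and 0.01 over 12755 genes), and with the replicate block all 30 calls stayed and 9, 5 and 9 members changed. Low read numbers limit Phlda3, Gadd45g, and Gadd45a and Trp53inp1 after LPS.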
